A study of Homo sapiens with 6 samples.

Results

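The genes described here control the activation of plasminogen and the start of blood clotting at the cell surface. They comprised 9 genes, namely PLAU, PLAUR, PLAT, SERPINE2, SERPINB2, F3, TFPI, TFPI2 and PROS1, and were chosen by name as the urokinase, tissue factor and coagulation control genes of the array. All probe sets (groups of short probes for 1 transcript region) that the platform annotation mapped to 1 of these symbols alone were used, and 8 of the 9 genes had such a probe set, among 19775 genes that did. These 8 genes had 17 of the 54675 probe sets, and 15 of the 17 were bright enough to be tested (100 or more on 2 or more arrays). No probe set was named to SERPINB2 alone in the annotation used here, so SERPINB2 was not analysed here.

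RNA came from Daoy cells, an established line grown from a human medulloblastoma, a tumor of the cerebellum. The cells were left untreated or were exposed to 1 µM thapsigargin (Tg), an inhibitor of the calcium pump of the endoplasmic reticulum (ER) that induces the unfolded protein response (UPR), for 3 h or 8 h. There were 2 arrays for every one of the 3 groups, numbered replicate 1 and replicate 2, and the same untreated arrays served both times. All results therefore come from 1 line, 1 agent and 1 dose in culture, without a vehicle-treated group among the labels.

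Urokinase (PLAU) is a secreted protease that binds its surface receptor (PLAUR) and cuts plasminogen into plasmin, a protease that dissolves fibrin and degrades matrix. Tissue-type plasminogen activator (PLAT) does the same, mainly on fibrin, and the serpins SERPINE2 and SERPINB2 inhibit these activators. Tissue factor (F3) is the membrane receptor for factor VII that starts clotting, TFPI inhibits the tissue factor complex, TFPI2 is a related protease inhibitor of the extracellular matrix, and protein S (PROS1) is an anticoagulant cofactor of activated protein C and of TFPI.

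Thapsigargin was followed by a rise of PLAU and F3 that was highest at 3 h, by a smaller rise of PLAUR at 8 h, and by a fall of PROS1 at 8 h. PLAU was 3.59-fold higher at 3 h and 1.63-fold higher at 8 h, and F3 was 2.90-fold higher at 3 h and 1.65-fold higher at 8 h. PLAUR was 1.68-fold higher at 8 h, and PROS1 was at 0.292 of its untreated level at 8 h. PLAU at 3 h and PROS1 at 8 h passed the test in the fit of the groups alone. The others passed only in the fit that also held the replicate number as a block (termed the blocked fit). The Local Pooled Error test, which the authors used, was rebuilt here with Benjamini-Hochberg adjustment and is not their own run. In this rebuilt test PLAU at 3 h and PROS1 at 8 h passed (adjusted p = 0.00584 and 0.0348). F3 at 3 h (adjusted p = 0.103 in that test) and the rises of PLAU, F3 and PLAUR at 8 h did not. The paper itself lists F3 among the proangiogenic genes that rose after thapsigargin. PLAT, SERPINE2, TFPI and TFPI2 passed in neither fit. Values are from bulk RNA on arrays, so fewer cells of a type and less RNA per cell cannot be told apart.

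The sequences just before the starts of the 4 genes that passed a test are shown as a description. Shared control of these genes was not tested. They are the 250 bases before a start given in RefSeq on GRCh38.p14, written 5′ to 3′ on the strand of the gene, and capitals mark the matches to the motifs searched. PLAU has 2 starts in this table, and the second is printed because it is the one with motif matches. The stretches are, for F3, chr1:94541760-94542009 on the minus strand, for PLAU chr10:73910882-73911131 on the plus strand, for PLAUR chr19:43670170-43670419 on the minus strand and for PROS1 chr3:93973897-93974146 on the minus strand.
F3: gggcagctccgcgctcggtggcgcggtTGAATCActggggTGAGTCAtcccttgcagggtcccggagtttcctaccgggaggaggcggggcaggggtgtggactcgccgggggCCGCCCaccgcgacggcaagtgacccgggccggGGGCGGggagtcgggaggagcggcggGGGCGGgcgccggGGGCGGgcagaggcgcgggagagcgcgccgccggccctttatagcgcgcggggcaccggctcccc
PLAU: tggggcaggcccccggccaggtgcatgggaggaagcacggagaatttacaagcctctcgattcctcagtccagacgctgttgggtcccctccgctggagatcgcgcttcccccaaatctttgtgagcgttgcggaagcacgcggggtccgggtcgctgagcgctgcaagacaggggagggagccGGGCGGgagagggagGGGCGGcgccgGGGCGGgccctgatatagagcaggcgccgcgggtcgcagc
PLAUR: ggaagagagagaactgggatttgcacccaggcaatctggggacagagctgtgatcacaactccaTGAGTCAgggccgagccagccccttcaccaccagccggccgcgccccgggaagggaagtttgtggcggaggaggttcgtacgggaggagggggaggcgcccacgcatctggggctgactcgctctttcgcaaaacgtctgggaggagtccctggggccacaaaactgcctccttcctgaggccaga
PROS1: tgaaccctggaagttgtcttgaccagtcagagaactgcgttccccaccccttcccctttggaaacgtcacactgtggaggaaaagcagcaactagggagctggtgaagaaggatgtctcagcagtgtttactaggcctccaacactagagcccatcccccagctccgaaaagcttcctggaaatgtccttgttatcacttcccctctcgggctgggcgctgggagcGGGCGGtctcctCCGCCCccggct

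The motifs searched on both strands were AP-1 (TGANTCA), the GC box (GGGCGG), the cAMP response element (TGACGTCA), the C/EBP-ATF response element (TGATGNAA), the NF-kB motif by name, and the ER stress response element, which is CCAAT and CCACG with 9 bases between them. The AP-1 letters occurred at 2 places of the F3 stretch, starting 223 and 210 bases before the start, and at 1 place of the PLAUR stretch, starting 186 bases before it. They also occurred once in the stretch of TFPI2, which passed no test, starting 87 bases before the start, and once in that of SERPINB2, which was not measured, starting 102 bases before it. They occurred in neither PLAU stretch, in neither SERPINE2 stretch and not in those of PROS1 and TFPI. Of 35116 RefSeq stretches of the same length, 6.57% held the AP-1 letters.

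GC boxes occurred 4 times in the F3 stretch, 3 times in the printed PLAU stretch and 2 times in that of PROS1. Among the other members they occurred 2 times in the stretch of TFPI2 and 1 and 2 times in those of SERPINE2, and 42.6% of all stretches held at least 1. The cAMP response element, the C/EBP-ATF element and the ER stress response element, held by 1.65%, 3.14% and 0.074% of all stretches, were in none of the members' 10 stretches. The NF-kB motif, held by 9.96% of all, occurred only in that of TFPI2 among the 10. The G and C content was 78% for F3, 68.8% for the printed PLAU stretch and 46.8% for the other, 63.2% for PLAUR and 57.6% for PROS1, beside a median of 58% over all stretches. None of these matches is evidence of a site in use, and other letters of the stretches were not examined.

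Each gene is read from its own probe set with the highest mean log2 signal, and the others are given beside it. The values are MAS5 signals on a linear scale, which compare arrays for 1 probe set but not 1 gene with another. Tests were two-sided and made with limma on log2 signals, with Benjamini-Hochberg adjustment over all 27616 probe sets tested, and a change passed at an adjusted p under 0.05. With 2 arrays a group the smallest p of an exact two-sided permutation test is 0.333, which is above the threshold, so no permutation p is given.

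PLAU had signals of 1876.5 and 1499.4 on the untreated arrays of replicates 1 and 2, 6358.0 and 5698.3 at 3 h, and 2543.5 and 2943.5 at 8 h. Both 3 h arrays were above all others, and both 8 h arrays lay between the 3 h and the untreated ones, so no groups overlapped. With 2 arrays a group a lack of overlap is common. Among all genes tested, 14% lay wholly above the untreated arrays and 16.5% wholly below them at 3 h. At 8 h these shares were 15.3% and 26.7%. Between the times, 14% lay wholly higher at 8 h than at 3 h and 22.6% wholly lower. At 3 h the log2 fold change was 1.84 (SE 0.21, adjusted p = 0.0432), and the replicates taken alone gave 1.76 and 1.93. In the blocked fit the SE was 0.15 and the adjusted p 0.000425. The fit without the block lost the call when any 1 of the 6 arrays was left out (adjusted p 0.0905 to 0.505), whereas the blocked fit kept it in 6 of 6 cases, with an adjusted p of at most 0.0146. Without the trend of the spread with signal the adjusted p was 0.506, and 0.445 with the block.

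The second PLAU probe set gave 790.5 and 741.6 on the untreated arrays, 2428.0 and 2469.0 at 3 h, and 940.1 and 1371.8 at 8 h. It had the same order of groups, with a log2 fold change of 1.68 at 3 h that passed in the blocked fit (adjusted p = 0.00229) and not without the block (adjusted p = 0.0958). The 8 h value of PLAU as log2 fold change was 0.71, with 0.44 in replicate 1 and 0.97 in replicate 2. That change passed in the blocked fit (adjusted p = 0.0234) and not without the block (adjusted p = 0.264). In the blocked fit it was lost without untreated replicate 2 (adjusted p = 0.163) and without 8 h replicate 2 (adjusted p = 0.197).

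PLAUR, the receptor that holds urokinase at the cell surface, had signals of 2331.8 and 1659.2 on the untreated arrays, 3260.8 and 2458.3 at 3 h, and 3460.1 and 3160.3 at 8 h. Both treated groups lay above the untreated arrays, and the 3 h and 8 h arrays overlapped. The log2 fold change at 3 h was 0.53, with an adjusted p of 0.161 in the blocked fit and of 1 without the block. At 8 h it was 0.75, which passed in the blocked fit (SE 0.14, adjusted p = 0.0119) and not without the block (adjusted p = 0.324). In the blocked fit the 8 h call was lost without untreated replicate 2 (adjusted p = 0.0916) and without 8 h replicate 2 (adjusted p = 0.0963).

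The other PLAUR probe sets differed from each other. The second, with 2266.2 and 1483.6 on the untreated arrays, 2821.7 and 2568.7 at 3 h, and 2877.7 and 2924.8 at 8 h, rose at the last time by 0.66 on the log2 scale and also passed in the blocked fit (adjusted p = 0.0456). The third ranged from 415.8 to 712.9 over the 6 arrays, and its log2 fold changes of 0.02 at 3 h and 0.26 at 8 h did not pass (adjusted p = 0.504 at 8 h in the blocked fit).

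F3, which encodes tissue factor, had signals of 2083.6 and 893.5 on the untreated arrays, 6403.8 and 2448.1 at 3 h, and 3214.8 and 1576.5 at 8 h. Replicate 1 was higher than replicate 2 in each group, by 2.33-fold, 2.62-fold and 2.04-fold in turn, so the 8 h and untreated arrays overlapped although each replicate rose. The log2 fold change at 3 h was 1.54, and the replicates taken alone gave 1.62 and 1.45. It passed in the blocked fit (SE 0.14, adjusted p = 0.000829), which it did in 6 of 6 cases with 1 array left out (adjusted p of at most 0.0203). Without the block the SE was 0.56 and the adjusted p 1, and without the signal trend the blocked fit gave 0.445. The size of the change without the block moved with single arrays, to 0.84 without 3 h replicate 1, 0.93 without untreated replicate 2, 2.15 without untreated replicate 1 and 2.23 without 3 h replicate 2, whereas the blocked values stayed between 1.41 and 1.67.

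At 8 h the log2 fold change of F3 was 0.72, with 0.63 in replicate 1 and 0.82 in replicate 2. It passed in the blocked fit (adjusted p = 0.0152) and not without the block (adjusted p = 0.760). The blocked call was lost without untreated replicate 1 (adjusted p = 0.116), untreated replicate 2 (adjusted p = 0.0684) or 8 h replicate 2 (adjusted p = 0.104). Without the block the change was 0.11 without untreated replicate 2, 0.21 without 8 h replicate 1, 1.24 without 8 h replicate 2 and 1.33 without untreated replicate 1, and with it between 0.58 and 0.86.

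PROS1, the only member called lower in either fit, had signals of 861.2 and 1042.5 on the untreated arrays, 500.5 and 632.3 at 3 h, and 243.0 and 315.5 at 8 h. No groups overlapped, and both replicates went down at each step. For 16.5% of all genes tested both 3 h arrays lay below both untreated ones, and for 26.7% both 8 h arrays did. For 22.6% both 8 h arrays lay below both 3 h ones. The log2 fold change of -0.75 at 3 h did not pass (adjusted p = 1 without the block and 0.144 with it), although the replicates gave -0.78 and -0.72. At 8 h the log2 fold change was -1.78 (SE 0.27, adjusted p = 0.0383), with -1.83 and -1.72 in the replicates and an adjusted p of 0.000757 in the blocked fit. Without the block this call was lost when any 1 array was left out (adjusted p 0.0635 to 0.26), and in the blocked fit it was kept in 6 of 6 cases (at most 0.0134). Without the signal trend the adjusted p was 0.230, and 0.174 with the block.

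**Figure D1:**
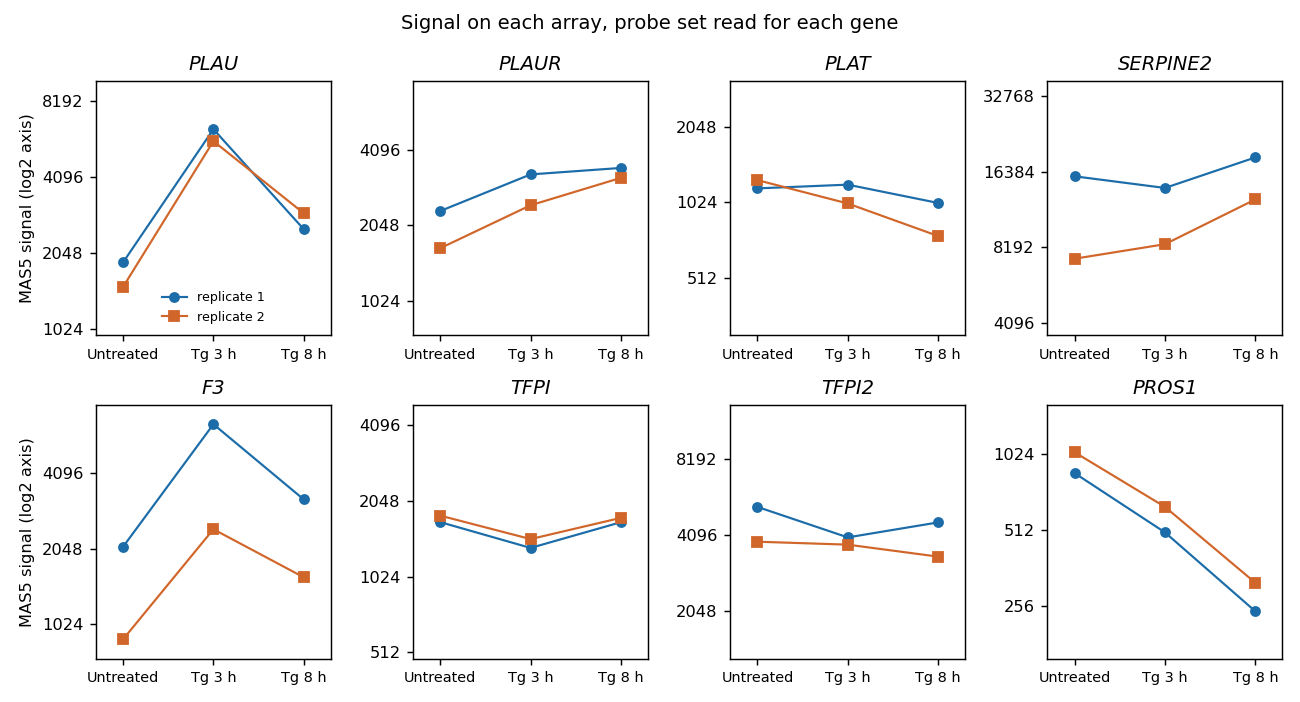
MAS5 signal (log2 axis, each panel with its own range) of the probe set read for each gene on the untreated, Tg 3 h and Tg 8 h arrays, with replicate 1 as blue circles and replicate 2 as orange squares. PLAU and F3 peaked at 3 h in both replicates, PROS1 went down at each step, and F3 and SERPINE2 lay higher in replicate 1 in every group.

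Among the activators, PLAT gave 1162.5 and 1253.9 on the untreated arrays, 1202.8 and 1012.3 at 3 h, and 1017.2 and 751.5 at 8 h. Its 8 h arrays lay below the untreated ones, with a log2 fold change of -0.47 that did not pass (unadjusted 95% interval in the blocked fit -0.86 to -0.07, adjusted p = 0.169 there and 0.574 without the block). At 3 h the replicates of PLAT went opposite ways around a log2 fold change of -0.13.

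SERPINE2, protease nexin 1, a serpin that inhibits thrombin, urokinase and tissue-type plasminogen activator, had signals of 15722.0 and 7392.4 on the untreated arrays, 14129.2 and 8443.0 at 3 h, and 18686.4 and 12722.7 at 8 h. Replicate 1 was again higher, by 2.13-fold, 1.67-fold and 1.47-fold in turn, and the groups overlapped. The log2 fold change was 0.02 at 3 h and 0.52 at 8 h, and the latter did not pass (unadjusted 95% interval in the blocked fit 0.21 to 0.82, adjusted p = 0.0575 there and 0.769 without the block). A second probe set reached 116.7 on untreated replicate 1 and stayed under 100 on the other 5 arrays, so it was not tested.

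TFPI, the inhibitor of the complex of tissue factor and factor VII, gave 1687.3 and 1790.5 on the untreated arrays, 1332.1 and 1444.4 at 3 h, and 1686.0 and 1754.3 at 8 h. The 3 h arrays were the lowest, with a log2 fold change of -0.33 that did not pass (adjusted p = 0.402 in the blocked fit and 1 without the block), and the change at 8 h was -0.02. Its other 3 tested probe sets had log2 fold changes between -0.47 and -0.13 at 3 h and between -0.15 and 0.02 at 8 h, none of which passed. The fifth, at 154.1 or lower on every array, was not tested.

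The pair of TFPI2 probe sets differed in direction at 8 h. The brighter one gave 5290.7 and 3846.8 on the untreated arrays, 4001.6 and 3744.5 at 3 h, and 4590.5 and 3355.0 at 8 h, with log2 fold changes of -0.22 and -0.20. The dimmer one gave 1269.5 and 1189.6, then 1264.0 and 974.2, then 2054.7 and 1450.0, with a log2 fold change of 0.49 at 8 h. Neither passed at 8 h in the blocked fit (adjusted p = 0.448 and 0.110), so no direction can be given for TFPI2.

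**Figure D2:**
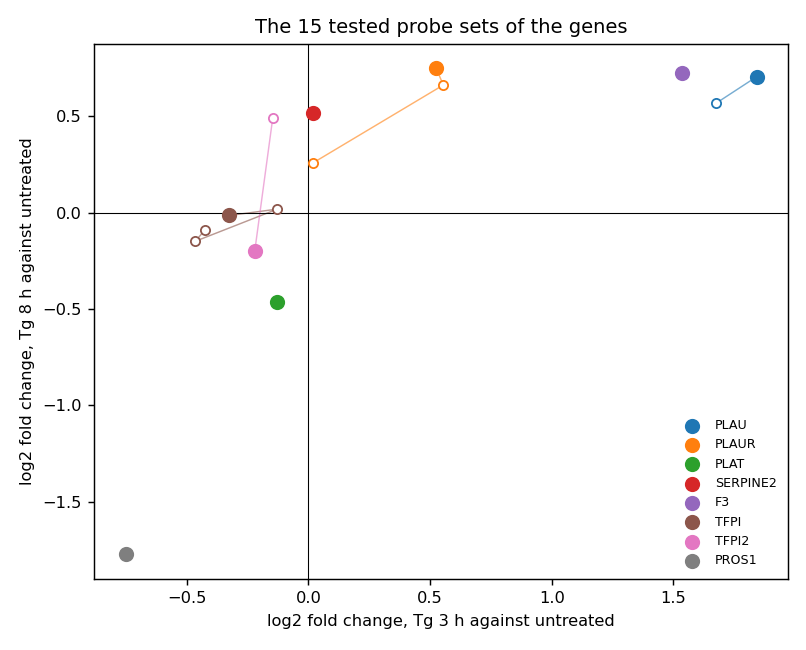
Log2 fold change at 8 h (vertical axis) against that at 3 h (horizontal axis), both against untreated, for the 15 tested probe sets, with the probe set read for each gene filled, the others open, and lines joining those of 1 gene. The PLAU pair lay together at the right, the third PLAUR probe set lay nearer 0 than the other two, and the TFPI2 pair lay on opposite sides of 0 at 8 h.

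Across the genes tested, 0.0701% were called higher and 0% lower at 3 h in the fit without the block, and 1.17% and 0.0779% in the blocked fit. Of the 8 members, 1 was called at 3 h without the block (PLAU) and 2 with it (PLAU and F3), all higher. At 8 h 0.646% of genes were called higher and 0.21% lower without the block, and 4.76% and 3.79% with it. Of the members 1 was called at 8 h without the block (PROS1, lower), and 4 with it (PLAU, PLAUR and F3 higher, PROS1 lower). The median log2 fold change of the members was -0.06 at 3 h and 0.25 at 8 h, beside -0.02 and -0.09 over all genes tested. The members were chosen with earlier results of these data known, so the shares describe them and are no test of the set.

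**Figure D3:**
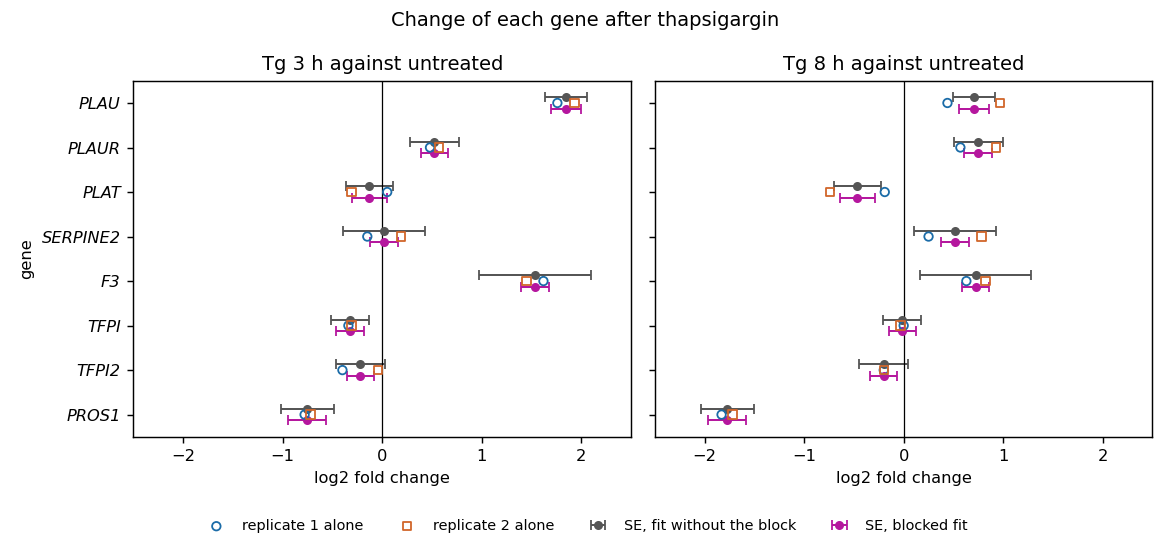
Log2 fold change of each gene at 3 h (left) and 8 h (right) against untreated, with each replicate alone as an open symbol and the estimate with its SE from the fit without the block in gray and from the blocked fit in magenta. For F3 the gray bars were wider than the magenta ones, with an SE of 0.56 against 0.14 at 3 h, while its replicates gave 1.62 and 1.45.

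The difference between the treated times was tested directly, without the untreated arrays in the contrast. PLAU was lower at 8 h than at 3 h by a log2 value of -1.14 (-1.32 and -0.95 in the replicates), and its second probe set by -1.11. F3 was lower by -0.82 (-0.99 and -0.63), and PROS1 by -1.02 (-1.04 in replicate 1, with replicate 2 in the same direction). These 3 genes passed in the blocked fit (adjusted p = 0.00785, 0.0194 and 0.0267), in which 1.53% of genes were called higher and 1.72% lower at 8 h than at 3 h. Without the block they did not pass (adjusted p = 0.285, 0.886 and 0.439), and 0% of genes were called in either direction. Of 12839 genes tested, 355 were higher and 649 lower at an unadjusted p under 0.05 in that fit. The Local Pooled Error test called 21 genes higher and 19 lower, but 0 of the members (adjusted p = 0.284 for PLAU).

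The number of blocked calls between the times moved with single arrays. Without 3 h replicate 1 it was 0, without 8 h replicate 1 only PLAU passed, and without 3 h replicate 2 only PLAU and F3 passed. PLAUR, with a log2 difference of 0.22 between the times (adjusted p = 0.476 in the blocked fit, 95% interval -0.09 to 0.53), did not pass. SERPINE2 was at 0.50 (adjusted p = 0.104) and the dimmer TFPI2 probe set at 0.64 (adjusted p = 0.0753), and these did not pass either.

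The other genes of the same systems were read from 8 lists. Of 117 other genes listed, 111 had a probe set of their own and 76 were bright enough to be tested, and 0 of the 76 were called at either time in the fit without the block. At an unadjusted p under 0.05 in that fit 7 genes were higher and 3 lower after 3 h, and after 8 h the numbers were 7 and 5. Among all 12839 genes tested, the numbers were 419 and 159 after 3 h, and 699 and 852 after 8 h. The Local Pooled Error test called 1 gene, ATF3, at each time. The blocked fit called 1.17% of all genes tested higher and 0.0779% lower at 3 h, and 4.76% and 3.79% at 8 h. Of the 76 genes it called 4 at 3 h, all higher, and 11 at 8 h, of which 5 were higher and 6 lower. With 1 array left out the blocked fit called between 0 genes (3 h replicate 1 left out) and 7 genes at 3 h, and between 4 (untreated replicate 1 left out) and 12 at 8 h, where SERPINB8, TIMP2 and ATF3 passed in 6 of 6 cases. The adjusted p-values of these genes given next are from the blocked fit with all arrays.

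Of 19 tested genes of the plasminogen system that were no members, 0 were called at 3 h and 3 at 8 h. SERPINB8, a serpin that acts inside cells, had signals of 652.3 and 996.4 on the untreated arrays and of 1332.5 and 2370.4 at 8 h (log2 fold change 1.14, adjusted p = 0.00285). IGF2R, which binds PLAUR and plasminogen beside its role in lysosomal sorting, was lower at 8 h (log2 fold change -0.60, adjusted p = 0.0184), and MRC2, a collagen receptor that associates with PLAUR, with -0.69 (adjusted p = 0.0456). Plasminogen itself (PLG) had signals of 66.0 to 207.0, and the plasminogen-binding surface proteins ANXA2, S100A10 and ENO1 had log2 fold changes between -0.15 and 0.10 at both times, none of which passed.

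Of 13 tested matrix metalloproteinases and inhibitors, 2 were called at 8 h, both lower, and 0 at 3 h. TIMP2, an inhibitor of metalloproteinases that also takes part in activating MMP2, had 5757.8 and 8696.0 on the untreated arrays and 2520.7 and 4599.5 at 8 h (log2 fold change -1.06, adjusted p = 0.00114). For MMP2, gelatinase A, it was -0.59 (adjusted p = 0.0318).

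Only 3 of the 16 coagulation factors were bright enough to be tested (F7, F8 and F12), and none was called. Of the receptors for thrombin and related proteases 2 of 4 were tested, and F2R, the main thrombin receptor, was lower at 8 h with signals of 2026.6 and 1815.4 on the untreated arrays and 1206.9 and 1051.5 at 8 h. Its log2 fold change was -0.77 (adjusted p = 0.0124). Of the natural anticoagulants and the partners of protein S 6 of 14 were tested and 0 were called, including the receptors AXL, TYRO3 and MERTK, whose log2 fold changes at 8 h were -0.14, -0.20 and -0.03.

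Of 10 genes for the gamma-carboxylation and export of clotting factors, all tested, 3 were called at 8 h. LMAN1 and MCFD2, which together carry factors V and VIII out of the ER, had log2 fold changes of 0.59 and 0.62 (adjusted p = 0.0163 and 0.0183). FURIN, a protease that cuts proproteins, had 1263.4 and 1192.1 on the untreated arrays and 510.9 and 675.3 at 8 h (log2 fold change -1.06, adjusted p = 0.00852). GGCX and VKORC1, the carboxylase and the vitamin K reductase that protein S needs, were at -0.16 and -0.24 at 8 h and did not pass. Of 6 tested genes for the exposure of phosphatidylserine, the lipid on which clotting factors assemble, 0 were called.

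The factors of the AP-1, ETS, EGR1 and NF-kB families had the highest median of these lists at 3 h, with a median log2 fold change of 0.57 over 17 tested genes. ATF3 gave 680.0 and 2723.4 on the untreated arrays, 5585.3 and 7849.7 at 3 h, and 4269.4 and 6087.8 at 8 h, with log2 fold changes of 2.28 and 1.91 (adjusted p = 0.00742 and 0.00596). At 3 h REL and FOSL2 were at 1.06 and 1.04 on the same scale (adjusted p = 0.0461 and 0.0292), and -0.36 and 0.08 at 8 h. FOSL1, at 0.81 at 3 h (adjusted p = 0.0471), and ETS1, at 0.66 at 8 h (adjusted p = 0.00892), fell outside the rule for named genes and were picked after their values were seen. JUN, at 0.57, and FOS, at -0.41, did not pass at 3 h.

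**Figure D4:**
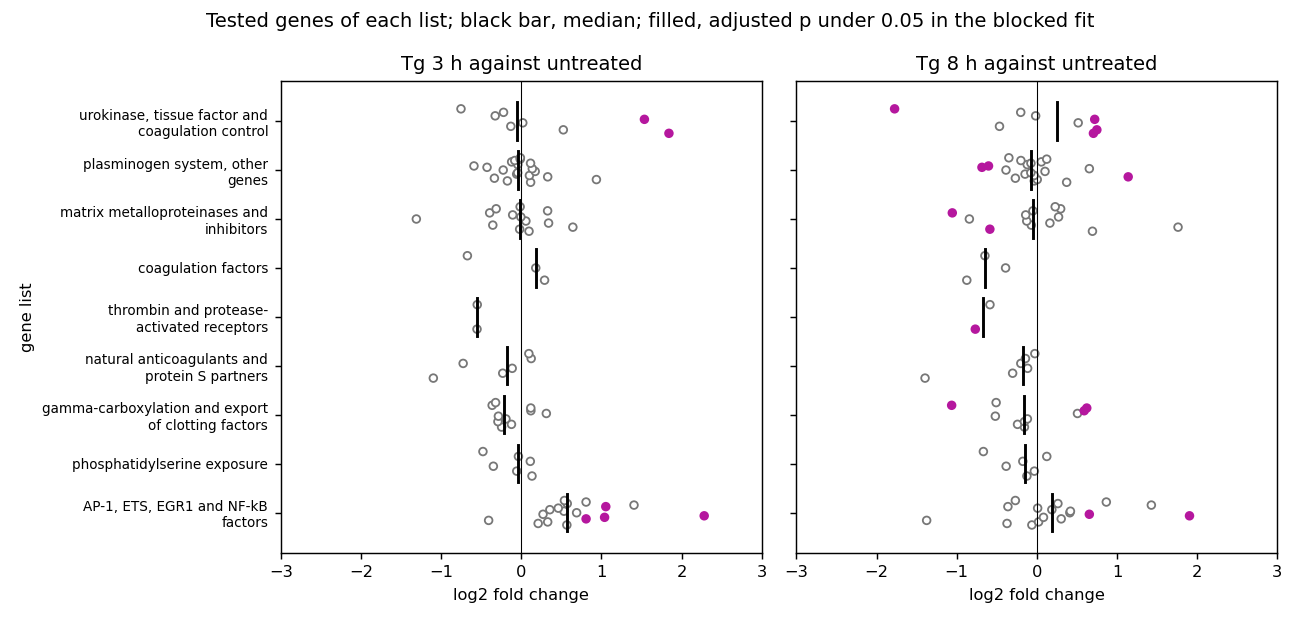
Log2 fold change at 3 h (left) and 8 h (right) against untreated of each tested gene of the members (top row) and of the 8 other lists, with the median of each list as a black bar and genes called in the blocked fit filled. Among the members 2 points are filled at 3 h and 4 at 8 h, with PROS1 as the only one to the left of 0.

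The genes whose changes lay closest to those of each called member were found by the root mean square difference of the 4 within-replicate log2 differences, over the 7991 genes whose mean signal reached 500 in 1 or more groups. For PLAU they were F3 (0.27), EVI2A (0.28) and BRD2 (0.34), and for F3 they were BRD2 (0.12), SPRY2 (0.17) and HBEGF (0.23). For PLAUR they were BTG3 (0.05), ZNF622 (0.08) and TMEM214 (0.1), and for PROS1 BHLHE41 (0.12), SOCS3 (0.20) and GAS2L1 (0.20). Of all candidates F3 was thus the closest to PLAU. The measure is a description over 4 differences that share the untreated arrays.

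The arrays were comparable in scale, with 2% trimmed means of 500.07 to 500.08, and their median signals were 84.8 to 103 for replicate 1 and 69.7 to 75.3 for replicate 2. The treatment was read from 6 UPR genes, HSPA5, DNAJB9, SDF2L1, HERPUD1, DDIT3 and HYOU1. All were called higher at both times in the blocked fit (1 of them at 3 h and 4 at 8 h without the block). Their log2 fold changes were 1.64 to 4.38 at 3 h and 1.70 to 4.41 at 8 h. Untreated replicate 2 was above untreated replicate 1 for HERPUD1 (6623.3 against 1376.1) and DDIT3 (1654.4 against 405.4). It was also above it for HYOU1 (3426.7 against 2257.8), DNAJB9 (2095.8 against 1670.9) and HSPA5 (18933.2 against 16614.5). Of the 6 genes only SDF2L1 went the other way (593.4 against 1258.9). At 3 h replicates 1 and 2 alone gave 4.44 and 1.80 for HERPUD1, and 5.57 and 3.18 for DDIT3. Of 13 neural and medulloblastoma markers with a probe set, 8 were at 100 or more on all arrays (NES, VIM, SOX2, ZIC1, PAX6, TUBB3, MAP2 and GLI2) and 3 under 100 on all (ATOH1, SYP and GFAP). Their summed signals were 51419.8 to 80519.9 untreated, 55227.8 to 71229.3 at 3 h and 46404.6 to 62046.2 at 8 h. The median log2 fold change of the 10 tested was -0.14 at 3 h and -0.48 at 8 h. At 8 h the transcription factors SOX2 (-1.15, adjusted p = 0.0301) and GLI2 (-1.18, adjusted p = 0.0248) were called lower in the blocked fit, and neither passed without the block (adjusted p = 0.200 and 0.169).

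Because endothelial cells, monocytes, platelets and fibroblasts also make these proteins, their markers were read too. Of the 8 endothelial markers VWF, ESAM and CLDN5 were under 100 on every array, while TIE1 was at 448.3 to 655.1, and TEK and KDR reached 358.9 and 224.5. Of the monocyte markers PTPRC, CD14 and LYZ were under 100 on every array and none reached 100 on all. Of the platelet markers PF4 and PPBP were under 100 on every array, and GP1BA was at 116.1 to 184.9. No gene of these 3 lists was called at either time in the blocked fit. The summed signals of the 8 endothelial markers were 1261.9 to 1362.0 untreated, 1094.4 to 1242.5 at 3 h and 1044.6 to 1336.9 at 8 h. Those of 7 monocyte markers were 237.4 to 375.2, 243.0 to 288.7 and 208.1 to 530.8, and those of 6 platelet markers 293.8 to 315.8, 370.9 to 447.7 and 314.7 to 338.9.

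Of 8 fibroblast markers, 5 (COL1A1, COL1A2, COL3A1, LUM and THY1) were at 100 or more on all arrays and PDGFRA was under 100 on all. Their summed signals were 28974.8 to 42749.9 untreated, 22801.5 to 34102.8 at 3 h and 22200.9 to 37564.4 at 8 h. The groups overlapped, but within each replicate the sum was lower than untreated at both times, with the higher value of each range from replicate 1. COL1A1 alone had signals of 17638.9 to 33447.7, so it weighed most in the sum. LUM, the proteoglycan lumican, was called lower at 8 h in the blocked fit (log2 fold change -0.91, adjusted p = 0.0439) and not without the block (adjusted p = 0.596). COL1A2 went the other way at 8 h in both replicates (log2 fold change 0.76). That rise did not pass (adjusted p = 0.054 in the blocked fit and 0.495 without the block). The part of all these markers in the results was not tested.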

How the data were processed

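RNA of Daoy cells was measured on 6 arrays, 2 each for untreated, Tg 3 h and Tg 8 h. The authors deposited MAS5 signal intensities per probe set on a linear scale, each array being brought to a trimmed mean of 500, with replicates not pooled. Detection calls were not used here. Scaling to a trimmed mean assumes that most transcripts did not shift together.

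Signals were taken to log2 in R 4.3.3 with limma 3.58.1 (lmFit, then eBayes with an intensity trend, all 6 arrays, the group as the term) and tested over 27616 probe sets that reached 100 on 2 or more arrays. In all, 41097 probe sets had 1 symbol, 1801 several and 11777 none, and no gene was named from several. Symbols were set against RefSeq through the Entrez identifier, and 0 changed. Of these genes 12839 were tested. Tables and figures were made in Python 3.11.15 with pandas 2.3.3 and matplotlib 3.10.9.

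The methods describe 2 independent experiments, and same-numbered arrays deviated together (correlations of 0.28, 0.32 and 0.26 over tested probe sets and 0.69, 0.70 and 0.66 over those with a signal of 500 or more), so the blocked value is given beside a result it changes. That the cultures were separate rests on the methods, and the p-values cover only the variation among these arrays, whose number limits the precision.

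Alternatives were the block, the methods' Local Pooled Error test as rebuilt here, no trend, quantile normalization and median centring. Further ones were other filters, a pseudocount of 50, a floor of 100, other probe sets and leaving out each array. The members and lists were chosen with earlier results of these data known. Named genes were all members, up to 3 genes of each list with the largest change among those called in either fit, and the 3 genes closest to each called member. Promoter stretches were from RefSeq and covered 8 of the 9 members. PLAT was not matched.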

Additional observations from a re-analysis of the deposited data

Results flagged for a closer look

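For 3 genes the change after 8 h differed from that after 3 h in a direct test between the times (limma, adjusted p under 0.05 in the blocked fit). The log2 difference, 8 h minus 3 h, was -1.137 for PLAU, -0.815 for F3 and -1.023 for PROS1. Each was in the same direction in 2 of 2 replicates. PLAU and F3 were lower at 8 h than at 3 h while above the untreated level, and PROS1 was further below it. In the fit without the block the same differences did not pass (adjusted p = 0.285, 0.886 and 0.439).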

How the results depend on the processing

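With 2 arrays a group, the calls moved with the settings of the fit. Without the block the members called were 1 at 3 h, 1 at 8 h and 0 between the times, and 0 other genes of the lists at either time. With the replicate block they were 2, 4 and 3, and 4 and 11 other genes. The Local Pooled Error test called 1 member at 3 h (PLAU), 1 at 8 h (PROS1) and 0 between the times, and 1 other gene at each time. Median centring, signals under 100 raised to 100, and only the 4 arrays compared each left 0 members at 3 h and 0 at 8 h, as did the fit without the intensity trend, with or without the block. The following combinations were chosen after seeing the data. The block with signals raised to 100 gave 2, 4 and 2 members and 2 and 10 other genes. The block with quantile normalization gave 2, 5 and 3 members and 4 and 11 other genes, and with median centring 2, 4 and 1 members and 2 and 10 other genes. Leaving out each array in turn, without and with the block, gave 0 to 2 members at 3 h, 0 to 5 at 8 h and 0 to 4 between the times, and 0 to 7 and 0 to 12 other genes. Directions changed for PLAT, SERPINE2, TFPI and TFPI2 and for none of the 4 called members. Median centring shifted every log2 fold change by -0.11 at 3 h and 0.08 at 8 h. With it, with or without the block, SERPINE2 at 3 h was -0.094 (0.019 before) and TFPI at 8 h was 0.067. With the mean of all probe sets SERPINE2 was -1.091 at 3 h and -0.428 at 8 h, and TFPI2 at 8 h was 0.145. Single probe sets gave 0.018 for TFPI and 0.490 for TFPI2 at 8 h. With 1 array left out the log2 fold changes ranged from -0.356 to 0.096 for PLAT at 3 h, -0.526 to 0.563 and -0.028 to 1.061 for SERPINE2 at 3 h and 8 h, -0.058 to 0.028 for TFPI at 8 h, and -0.451 to 0.009 and -0.431 to 0.029 for TFPI2 at 3 h and 8 h. Those of F3 ranged from 0.843 to 2.231 at 3 h and from 0.112 to 1.333 at 8 h, and those of PLAU, PLAUR and PROS1 kept within 1.5 times of their fold. A lone array left in a group was assumed to vary like the others. The cause was not tested.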
